A study of Caenorhabditis elegans with 2 samples.

Results

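The histone genes of *Caenorhabditis elegans* were examined for peaks of the zinc finger protein ZTF-11. Every protein-coding gene of the WBcel235 annotation whose name starts with his- was taken, which gave 72 of 19973 nuclear protein-coding genes. Of these, 67 lay within 5 kb of another his- gene and are called clustered below, and 5 were isolated. The largest distance from a clustered gene to its nearest neighbour was 987 bp, and the smallest from an isolated gene was 633914 bp. No gene was therefore close to the limit between clustered and isolated. Chromosomes I, II, III, IV, V and X held 2, 14, 3, 22, 27 and 4 of the genes.

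Histones package DNA into nucleosomes. The core particle is built from H2A, H2B, H3 and H4, and the linker histone H1 binds where DNA enters and leaves it. Core histone genes are expressed mainly while DNA is replicated, and in this worm they lie in clusters of intronless copies, often as H2A and H2B or H3 and H4 genes that point away from each other and share the sequence between them. Variants such as H3.3 are deposited outside replication and come mostly from single genes with introns. ZTF-11 belongs to the Myt1 family, which is known for repressing non-neuronal genes in developing neurons.

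Chromatin immunoprecipitation with sequencing (ChIP-seq) had been done on whole L4 larvae of mixed sex, the last larval stage, from strain OP236 (*unc-119*(ed3) III with the integrated transgene wgIs236, which carries eGFP-tagged *ztf-11*). Both samples carried the *unc-119* mutation and the transgene. There was 1 group of 2 biological replicates, with no second condition and so no comparison of conditions. Whole worms of both sexes were pooled in each sample, and the promoter and the cells that express the transgene are not stated in the sources used here. The lists give peaks without numbers of reads, so sequencing depth is unknown. Relaxed lists, which hold weak peaks as well as strong ones, gave 30000 peaks for the pooled replicates, 29985 nuclear peaks for replicate 1 and 22869 for replicate 2, and a thresholded list gave 47. In that last list 0 of 72 histone genes had a peak, where 0.175% of all genes did. In whole animals, binding in fewer cells and less binding in each cell cannot be told apart. The −log10 q of replicate 1 peaks did not pass 0.629, while that of replicate 2 peaks ran from 2.58 to 3.57. The authors' signal value of a peak has no stated scale and was compared within a list only.

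The share of histone genes with a peak was below that of all protein-coding genes in each of the 3 relaxed lists. A gene was counted when it had a summit in its promoter window, which reached 1000 bp upstream and 200 bp into the gene from each annotated 5′ end. In the pooled list 6 of 72 histone genes had a summit there (8.33%), against 39.1% of all protein-coding genes. Replicate 1 gave 8 of 72 (11.1%), against 39.3%, and replicate 2 gave 12 of 72 (16.7%), against 28.1%. No test was made, because the genes of a cluster share windows and peaks and are not independent. In distinct windows, histone genes had 137 pooled peaks per Mb, against 327 per Mb for all genes. The values were 122 against 332 per Mb in replicate 1 and 152 against 234 per Mb in replicate 2. Genes with a single annotated 5′ end had a peak in 34.2% (pooled), 34.5% (replicate 1) and 23.2% (replicate 2) of cases; of the histone genes, 64 had the start codon as their only annotated 5′ end, so no 5′ untranslated stretch is annotated for them.

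**Figure D1:**
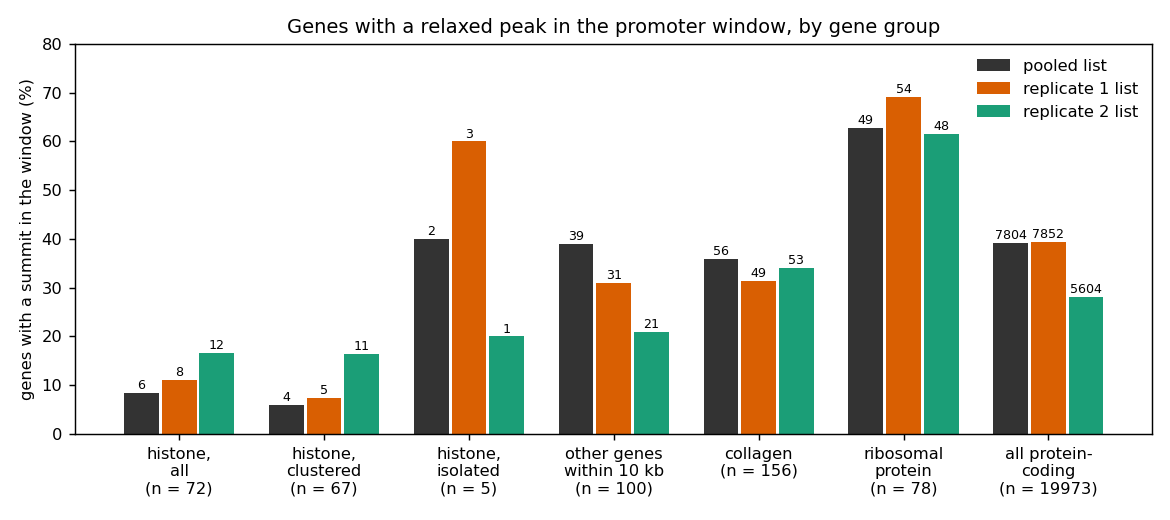
Share of genes with a relaxed peak summit in the promoter window (y axis, %) for 7 gene groups (x axis) in the pooled, replicate 1 and replicate 2 lists. The number above each bar is the count of genes with a summit. All and clustered histone genes stand lowest in every list, at 6 and 4 genes in the pooled list.

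Clustered and isolated histone genes are set side by side in the plot of shares by gene group. A pooled peak lay at 4 of 67 clustered genes (5.97%) and 2 of 5 isolated genes (40%), where 39.1% of all genes had one. In replicate 1 the counts were 5 of 67 (7.46%) and 3 of 5 (60%), with 39.3% of all genes. Replicate 2 gave 11 of 67 (16.4%) and 1 of 5 (20%), with 28.1% of all genes. With 5 isolated genes, a single gene moves their share by 20 points, and in replicate 2 the higher share of isolated genes rests on *his-24* alone. Other protein-coding genes within 10 kb of a histone gene, which share its neighbourhood, had a pooled peak in 39 of 100 cases, a replicate 1 peak in 31 and a replicate 2 peak in 21.

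A peak in any of the 3 lists lay at 16 of the 72 genes (22.2%), against 60.7% of all genes. A peak in all 3 lists lay at 4 genes (5.56%), against 10.5% of all genes. These 4 were the H1 gene *his-24*, the H3 gene *his-42* and the H4 genes *his-31* and *his-37*. Of the 21 histone genes with at least 80% of the window found once in the genome, 10 had a peak in any list (47.6%). In all 3 lists, 3 of these 21 had one (14.3%). A further pair, *his-15* and *his-72*, had a peak in the pooled and replicate 1 lists. Replicate 2 alone gave a peak to 8 genes, and replicate 1 alone gave a peak to *his-46* and *his-71*.

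The strongest histone peak lay at *his-37*, an H4 gene with an intron that sits on chromosome V at 9547105 to 9547607, 840 bp from *his-41*. Its pooled summit at 9547079 was 26 bp upstream of the 5′ end. The highest signal in its window was 18.6 in the pooled list (rank 190 of 30000), 6.12 in replicate 1 (rank 24858) and 16.3 in replicate 2 (rank 37 of 22869). The replicate 2 peak was thus among the strongest of its list, and the replicate 1 peak in the window among the weakest of its own. The replicate summits lay 276 bp apart, and the replicate 1 peak shared 17 bp with that of replicate 2. The only replicate 1 summit in the window, at 9546795, lay inside the gene C50F4.6 and 310 bp upstream of the 5′ end. Replicate 1 therefore did not show the same summit. The gene C50F4.6 also lay within 300 bp of the pooled and replicate 2 summits. *his-37* was the only histone gene with a rank of 1000 or better in the pooled list and likewise in replicate 2, while replicate 1 ranked none so high.

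The linker histone gene *his-24*, an isolated gene with an intron at 14490094 to 14491119 on X, had the second highest pooled signal. H1 encoded by *his-24* is known for a role in silencing in the germline. The window signal was 8.96 in the pooled list (rank 8942) and 7.38 in replicate 2 (rank 1143), and its replicate 1 peak stood only at rank 25839 of 29985. The pooled and replicate 2 summits, at 14490121 and 14490123, were 27 and 29 bp downstream of the 5′ end. The replicate 1 summit was 933 bp from that of replicate 2, and those peaks did not overlap. Replicate 1 therefore did not show the same peak, although the gene counts as having a peak in all 3 lists. The noncoding RNA genes M163.16 and M163.19 lay within 300 bp of the pooled summit.

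The upstream sequences of *his-37* and *his-24* are shown because these genes had the highest pooled and replicate 2 signals of all histone genes. They run 5′ to 3′ on the plus strand and end at the base before the annotated 5′ end. Capitals mark the longest stretch that the pair share, 20 bases long. The first lies at chrV:9546905-9547104 and the second at chrX:14489894-14490093 in ce11, read from the RefSeq genome.
his-37: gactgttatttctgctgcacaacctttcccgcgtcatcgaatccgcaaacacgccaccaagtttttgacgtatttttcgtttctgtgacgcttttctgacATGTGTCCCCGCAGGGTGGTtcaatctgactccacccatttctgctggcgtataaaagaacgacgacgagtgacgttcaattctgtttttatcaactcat
his-24: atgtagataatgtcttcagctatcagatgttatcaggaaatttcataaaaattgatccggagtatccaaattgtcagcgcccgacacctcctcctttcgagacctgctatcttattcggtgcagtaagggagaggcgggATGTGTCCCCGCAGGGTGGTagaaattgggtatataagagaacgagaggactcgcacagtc

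The last base of the shared stretch lay 81 bp before the 5′ end of *his-37* and 42 bp before that of *his-24*. Its centre was 65 and 79 bp from the pooled summits of *his-37* and *his-24*, and 57 and 81 bp from those of replicate 2. A core of 12 of its bases, GTGTCCCCGCAG, was chosen after these sequences were seen and was searched on both strands in the 200 bp upstream of every gene. It was found at 22 of 72 histone genes (30.6%) and at 24 of 19973 protein-coding genes in all (0.12%). With up to 1 mismatch it was found at 57 of 72 histone genes (79.2%), against 62 genes in all (0.31%). The 5 other genes were *hil-2*, a linker histone gene, and *ret-1*, K07C5.13, *egl-17* and *fbxb-107*. The match is thus shared by most histone genes, including many with no peak. Of the 57 genes, 3 had a pooled peak, 4 a replicate 1 peak and 9 a replicate 2 peak in the window. Of the 15 without the match, 3, 4 and 3 did. Among all genes the shares were 39.1%, 39.3% and 28.1%. The 57 genes include *his-37* and *his-24*, each with a peak in all 3 lists. The core was taken from these genes because of their peaks. The counts therefore cannot be used to compare genes with and without the match. The median window of the 57 genes was found once in the genome over only 10.6% of its 36-base words. What repeated sequence adds to these counts was not tested.

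The exact core occurred 43 times in the nuclear genome, 14 of them upstream of histone genes. Those at *his-37* and *his-24* had a pooled and a replicate 2 summit within 100 bp, but the core was taken from these genes because of their peaks, so they are left out of the counts that follow. Of the 12 other occurrences upstream of histone genes, 0 had a pooled summit within 100 bp, 0 a replicate 1 summit and 2 a replicate 2 summit, at *his-61* and in the spacer of *his-4* and *his-3*. Within 100 bp, 5 of these 12 had no 36-base word found once in the genome, and that at *his-17* and *his-18* was 2.41% unique. The sites at *his-61* and at *his-4* and *his-3* were 100% unique. So were those at *his-68* and that at *his-60* and *his-59*, which had no summit within 100 bp in any list. That at *his-6* and *his-5* was 82.5% unique and had none either. The part that repeated sequence plays in these counts was not tested. Of the 29 occurrences elsewhere in the genome, 0 had a pooled, 3 a replicate 1 and 0 a replicate 2 summit within 100 bp. In the pooled list 6.01% of the genome lies within 100 bp of a summit, and likewise 6.01% in replicate 1 and 4.58% in replicate 2. At *his-68* a replicate 2 summit lay just outside this distance, 104 bp away. The core AAGTT, which Myt1-family proteins are known to bind, was present on either strand in the 200 bp upstream of 14 of 72 histone genes (19.4%), against 55.1% of all genes. It occurred 1 time in the sequence of *his-37* and 0 times in that of *his-24*. These matches describe the sequence only, and no base here was shown to be bound.

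**Figure D2:**
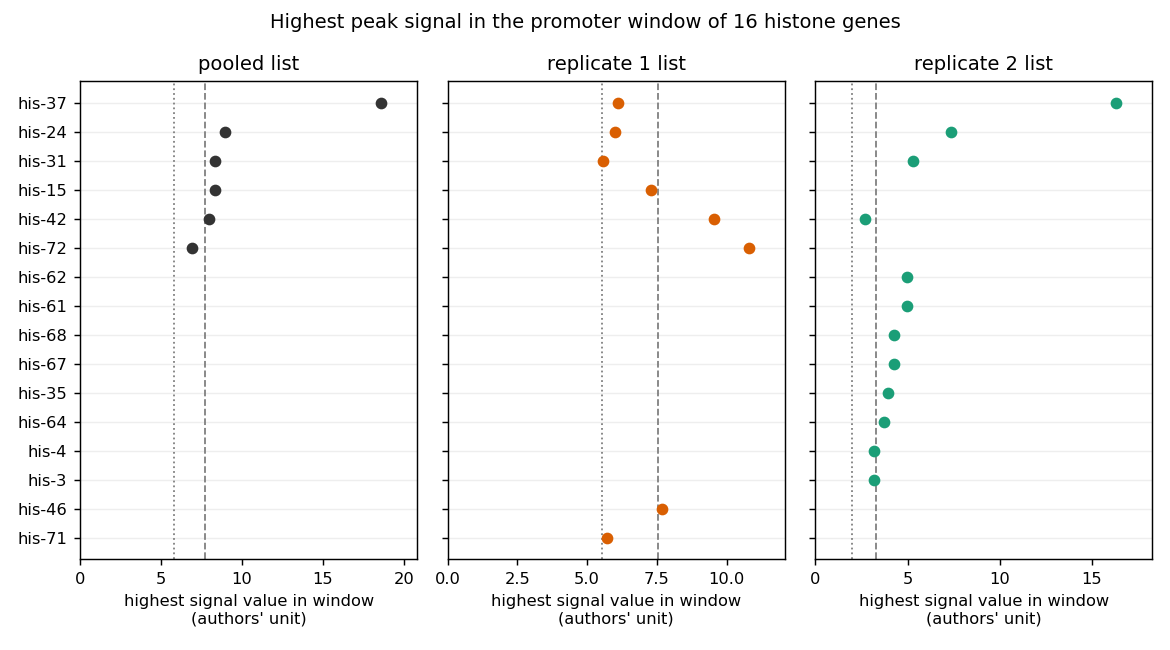
Highest signal of a peak in the promoter window (x axis, authors' unit, scale not stated) for the 16 histone genes with a peak in any relaxed list (y axis), in the pooled, replicate 1 and replicate 2 lists. The dotted line is the weakest and the dashed line the median peak of each list; *his-37* stands apart in the pooled list at 18.6 and in replicate 2 at 16.3, but not in replicate 1 at 6.12.

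The other histone peaks ranked far below that of *his-37* in the pooled list and replicate 2. The pooled list held peaks with signals from 5.80 to 77.1, with a median of 7.71, and 5 of the 6 histone genes with a pooled peak were at or above this median. These were 6.94% of the 72 histone genes, against 22.2% of all genes with such a peak. Beside the H4 gene *his-37*, the H4 gene *his-31* had a pooled signal of 8.34 (rank 11590), a replicate 1 signal of 5.56 (rank 29808) and a replicate 2 signal of 5.31 (rank 3716). The pooled summit lay at 8334716 on chromosome IV, upstream of *his-31* and next to the last base of its H3 partner *his-32*. The replicate summits were 201 bp apart and the peaks shared 92 bp. The H4 gene *his-46* had a replicate 1 peak only, with a signal of 7.69. That summit also lay in the window of B0035.21. In replicate 2 alone, *his-67* had a signal of 4.25 and *his-64* had 3.70. In all, 2 of 16 H4 genes had a pooled peak (12.5%), against 39.1% of all genes, and 3 had a replicate 1 peak (18.8%), against 39.3%. Replicate 2 gave 4 of 16 (25%), near the 28.1% of all genes. The median H4 window was unique over 37.9% of its sequence, counted as 36-base words found once in the genome.

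Among canonical H3 genes, *his-42* was the only one of 15 with a peak in any list (6.67%), against 60.7% of all genes, and the median H3 window was unique over 35.2% of its words. Its pooled signal was 7.99 (rank 13339), its replicate 1 signal 9.54 (rank 6880) and its replicate 2 signal 2.69 (rank 15932). This gene is the last of the large chromosome II cluster, and its pooled summit at 13828965 lay outside the outermost gene. The small nuclear RNA gene C47F8.9 lay within 300 bp of the replicate 1 summit, which was 252 bp from that of replicate 2.

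The 5 genes annotated as H3.3 or H3.3-like were *his-69*, *his-70*, *his-71*, *his-72* and *his-74*. The isolated gene *his-72*, which encodes H3.3, had 3 weak pooled peaks in its windows, of which the highest had a signal of 6.89 (rank 20394). Its replicate 1 signal of 10.8 (rank 4005) was the highest of any histone gene in that list, and replicate 2 gave it none. The replicate 1 summit at 12369527 on chromosome III also lay in the window of *rpt-6*, a proteasome subunit gene, and 1 pooled summit lay within 300 bp of the small nucleolar RNA gene Y49E10.36. The other H3.3 gene, *his-71*, had a replicate 1 peak of 5.72 (rank 28351), and in replicate 2 a summit with a signal of 5.24 lay inside the gene, outside the window. No list gave a summit in the windows of *his-69*, *his-70* or *his-74*. A pooled peak with a signal of 11.2 lay beyond the 3′ end of *his-74*, in the window of *ccch-3*.

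H2A genes had no pooled or replicate 1 peak, at 0 of 17 genes, against 39.1% and 39.3% of all genes. Replicate 2 gave peaks to 4 of them (23.5%), near the 28.1% of all genes. Only 3.03% of the median H2A window was unique. These were *his-68* (signal 4.25), *his-61* (4.95), *his-35* (3.96) and *his-3* (3.18). Of 16 H2B genes, whose median window was unique over 15.8% of its words, 3 had a peak in any list (18.8%), against 60.7% of all genes. Of these, *his-15* had a pooled peak of 8.31 and a replicate 1 peak of 7.28, both inside the neighbouring gene ZK131.11 and beyond the end of the cluster. In replicate 2, *his-62* and *his-4* had peaks, each the same peak as that of its H2A partner *his-61* or *his-3*. The H2A or H2B peaks of replicate 2 therefore come from 5 summits in all. The short genes *his-39* and *his-73*, annotated only as proteins with a histone domain, had no peak in any list. Histone genes with an intron had a pooled peak in 3 of 8 cases and those without an intron in 3 of 64, where 39.1% of all genes had one. The counts were 4 of 8 and 4 of 64 in replicate 1, with 39.3% of all genes, and 3 of 8 and 9 of 64 in replicate 2, with 28.1%. The median promoter window was found once in the genome over 99.7% of its 36-base words in genes with an intron and over 20.8% in those without, and the part this plays in the counts was not tested.

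The 72 genes formed 19 loci, of which 14 held at least 2 genes. The locus of *his-66*, *his-65*, *his-63* and *his-64* was joined across a gap just under 5 kb, between 11401475 and 11406451. The counts of loci therefore depend on the limit of 5 kb. In 6 of the 14 loci with at least 2 genes, no gene had a peak in any list. They include the clusters of 6 and 8 genes on chromosome V (8847393 to 8854053 and 8889488 to 8898539), where neither the span nor 1 kb on either side held a summit in any list. Those spans were unique over only 0% and 1.08% of their 36-base words. The largest cluster, 13 genes on chromosome II at 13817760 to 13828697, had both of its pooled summits and both of its replicate 1 summits outside the outermost genes. A replicate 2 summit with a signal of 3.26 lay inside it, between *his-9* and *his-25* and in the window of neither. The span of this cluster was unique over 7.05% of its words. The part that repeated sequence plays in the lack of peaks within these clusters was not tested. In the cluster of 6 genes on chromosome IV at 8331044 to 8336340, the strongest pooled peak (11.2) lay in *lys-10*, a lysozyme gene between *his-30* and *his-31*. At *his-35*, *his-41* and *his-37* on chromosome V, further pooled peaks lay in the adjoining genes *mdf-1* (8.60) and *nstp-10* (5.82).

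**Figure D3:**
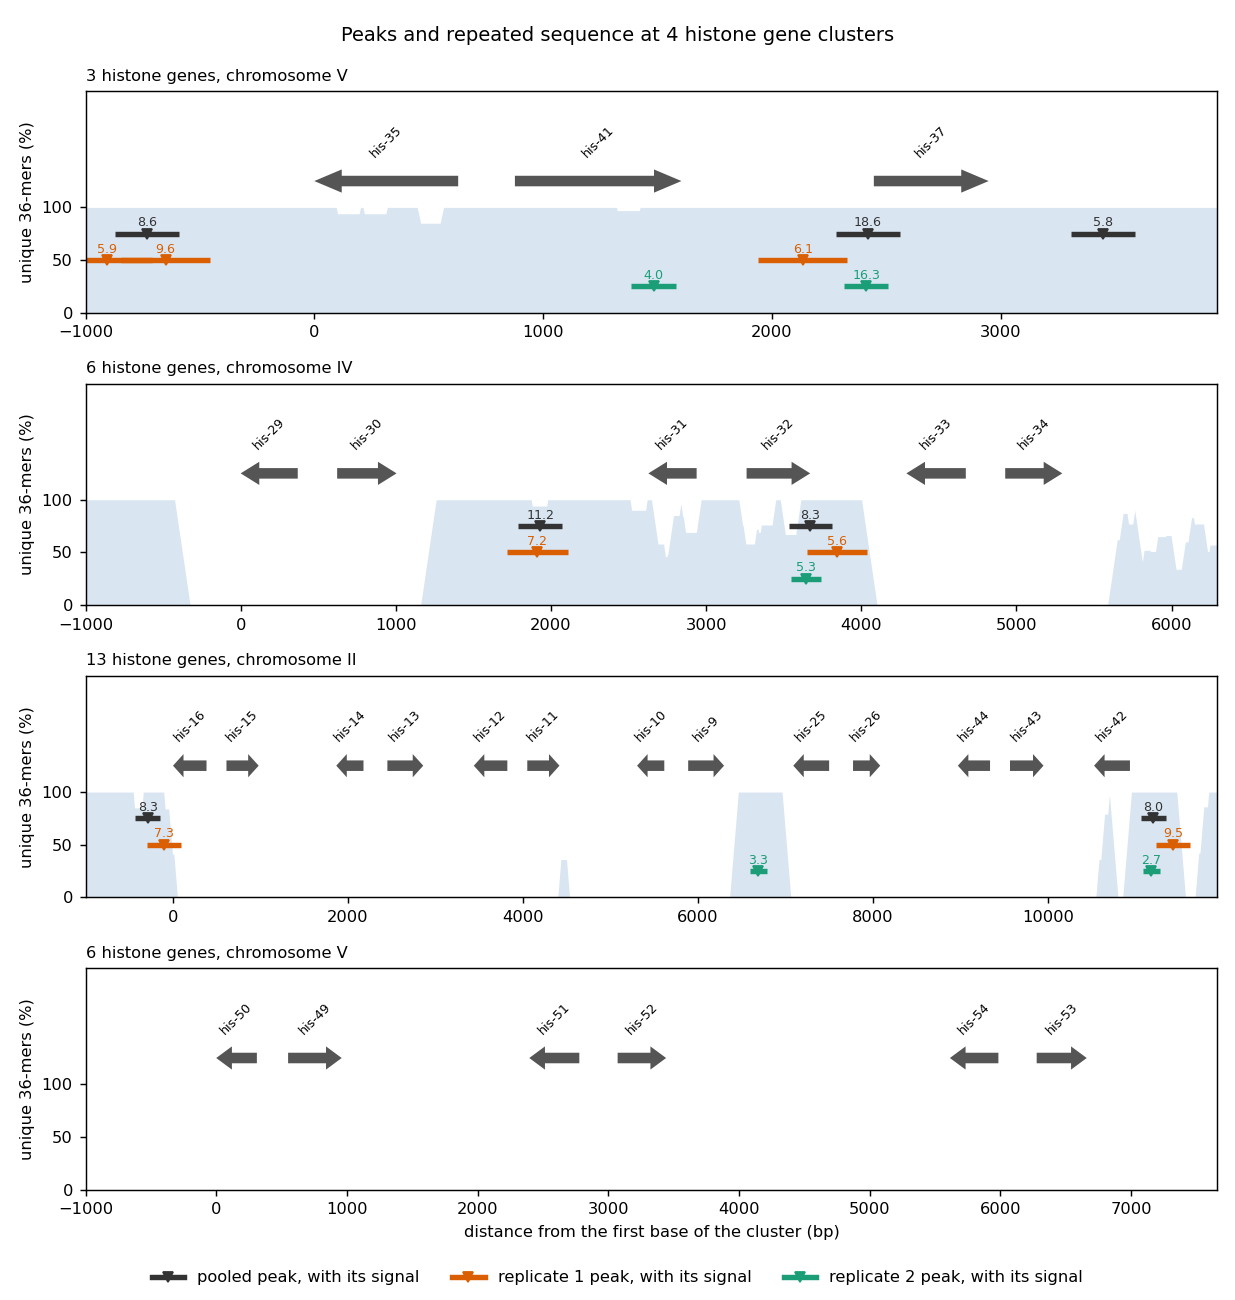
Peaks at 4 histone gene clusters: distance from the first base of the cluster (x axis, bp), histone genes as arrows, and peaks of the pooled, replicate 1 and replicate 2 lists as bars with a triangle at the summit and the signal value. The shaded area is the share of 36-base words found once in the genome (y axis, %, mean over 100 bp), and the peaks drawn lie over shaded stretches, while the chromosome V cluster at the bottom has neither.

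Much of the sequence around these genes is repeated in the genome, and the share that is unique moved with the presence of a peak. The promoter windows were cut into words of 36 bases, and each was looked up in the whole genome on both strands. The length of the reads and the treatment of reads that match several places are not stated in the sources used here. The median window was unique over 23.3% of its words for histone genes, against 100% for all genes. For 20 histone genes no word of the window was unique, and 44.4% of histone genes, against 1.3% of other genes, had under 20% of the window unique. In such windows, 0 of 32 histone genes had a pooled peak, as against 1 of 259 other genes. Replicate 1 and replicate 2 gave 0 of 32 and 0 of 259 each. Windows with so little unique sequence thus held almost no peaks whether the gene was a histone gene or not.

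Where at least 80% of the window was unique, 4 of 21 histone genes had a pooled peak (19%), against 41.2% of all genes with such windows. In replicate 1 the count was 5 of 21 (23.8%), against 41.5%, and in replicate 2 it was 8 of 21 (38.1%), against 29.5%. In these windows the share of histone genes was below that of all genes in the pooled list and replicate 1 and above it in replicate 2. Of clustered genes, 16 of 67 had such windows. All 5 isolated genes had windows at least 85.8% unique. The comparison of clustered with isolated genes is therefore also a comparison of repeated with unique sequence. Within windows at least 80% unique it gave 2 of 16 (12.5%) clustered and 2 of 5 (40%) isolated genes in the pooled list, and 2 of 16 (12.5%) and 3 of 5 (60%) in replicate 1. In replicate 2 the order was the other way, with 7 of 16 (43.8%) clustered and 1 of 5 (20%) isolated genes. The part that repeated sequence plays in these counts was not tested.

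**Figure D4:**
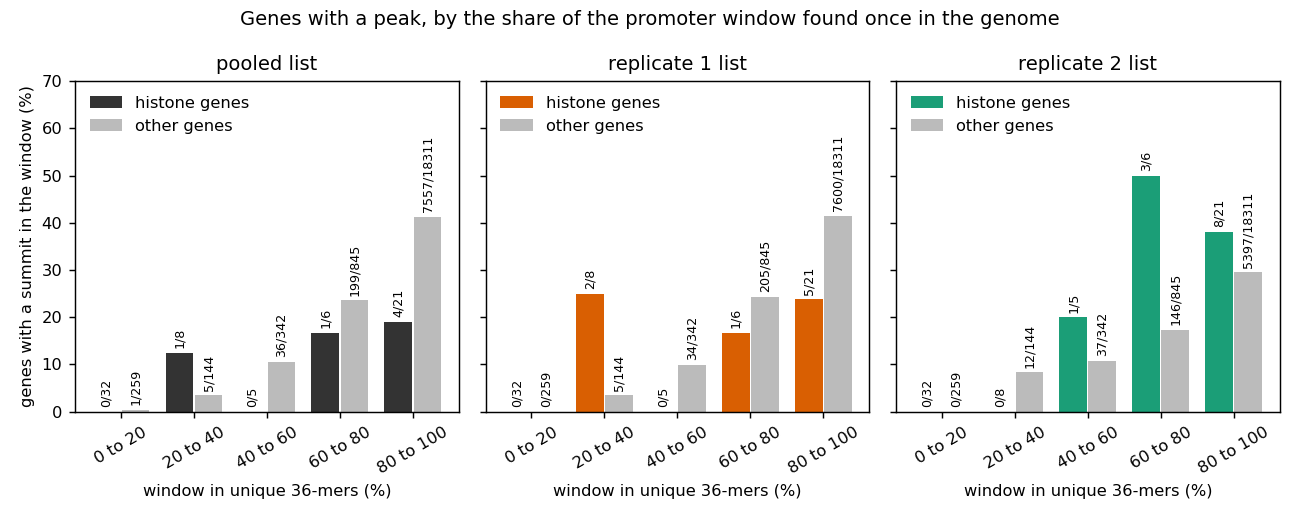
Share of genes with a summit in the promoter window (y axis, %) by the share of the window's 36-base words found once in the genome (x axis, %), for histone genes and all other protein-coding genes in each list. Numbers give genes with a summit out of genes in the bin; below 20% unique, 0 of 32 histone genes had a peak in each list.

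Genes that point away from each other with at most 1000 bp between them made 31 pairs, which hold 62 of the 72 genes. The sequence between partners was 227 to 368 bp long. No pooled or replicate 1 summit lay between any partners, and replicate 2 had a summit between 3 pairs: *his-67* and *his-68*, *his-61* and *his-62*, and *his-4* and *his-3*. Each of these pairs includes an H2A gene. All 3 were among the 8 pairs whose spacer was entirely unique, while 17 pairs had a spacer with no unique word. The windows of all genes held 327 (pooled), 332 (replicate 1) and 234 (replicate 2) peaks per Mb, so few summits would fall in spacers this short. Spacers of other genes were not counted, so a difference from them cannot be stated. Among pairs of H2B and H2A genes, 6 had spacers of the same length, 292 bp. In 4 of them (*his-51* and *his-52*, *his-54* and *his-53*, *his-21* and *his-22*, *his-20* and *his-19*) the spacers were identical, with 0 differing positions. The spacer of *his-4* and *his-3* differed from these copies at 33 of 292 positions (88.7% identity) and that of *his-8* and *his-7* at 13 (95.5%).

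The middle 192 bases of a spacer with a replicate 2 peak and of a repeated spacer without one are shown to let the copies be compared. They run on the plus strand from the H2B gene to the H2A gene, at chrV:16040566-16040757 and chrV:8853428-8853619 in ce11, without the 50 bases next to each gene. Capitals mark the 29 positions that differ between them.
his-4 and his-3: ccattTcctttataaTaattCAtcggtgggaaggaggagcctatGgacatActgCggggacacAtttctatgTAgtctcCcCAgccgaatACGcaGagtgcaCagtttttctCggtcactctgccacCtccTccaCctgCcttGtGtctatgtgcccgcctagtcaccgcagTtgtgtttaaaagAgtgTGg
his-54 and his-53: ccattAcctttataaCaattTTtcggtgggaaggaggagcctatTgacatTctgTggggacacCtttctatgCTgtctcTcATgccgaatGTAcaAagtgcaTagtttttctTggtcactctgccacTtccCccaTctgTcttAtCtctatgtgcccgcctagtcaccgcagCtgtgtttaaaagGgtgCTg
The replicate 2 summit of the first pair lay at 16040687, with a signal of 3.18 (rank 12290 of 22869), below the median of that list. The 12-base core above stands in this spacer on the minus strand. In the repeated spacer it is present with a mismatch. Since the 4 repeated copies cannot be told apart by a read that falls within the spacer, a lack of peaks there does not show a lack of binding.

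Histone genes outside the his- group and genes for proteins that handle histones were listed as well. Of 10 variants and linker histones, 5 had a pooled peak (50%), against 39.1% of all genes, and 5 had a peak in each replicate, against 39.3% and 28.1%. A peak in both replicates lay at 4 of them (40%), against 12.8% of all genes. They included *htz-1*, which encodes H2A.Z (pooled signal 12.0, replicate 1 14.2, replicate 2 2.31), and the linker histone genes *hil-1* (11.7, 9.66 and 5.36) and *hil-5* (6.77, 9.01 and 5.72). The linker histone gene *hil-3* had a peak at rank 3634 in the pooled list and at rank 1059 in replicate 2, close to its 5′ end in both. Replicate 1 gave it none. The centromeric H3 gene *hcp-3* had a pooled signal of 5.98 and no replicate peak. Of 15 chaperone and regulator genes, 6 had a pooled peak (40%), 6 a replicate 1 peak and 5 a replicate 2 peak. No comparison of these counts with those of the his- genes was tested. The pooled ones were the neighbouring genes *rba-1* and *lin-53*, which encode RbAp46/48-type histone-binding proteins (15.3 and 12.0), *nasp-1* and *nasp-2*, which encode NASP-type chaperones (11.2 and 9.79), the ATRX homologue *xnp-1* (11.1) and the FACT subunit gene *spt-16* (5.80). The gene *cdl-1*, whose product binds the stem-loop of histone mRNA, had no peak in any list. Windows of these 25 genes were at least 71.6% unique.

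The replicates shared few histone genes. Of the 72 genes, 4 had a peak in both replicates (5.56%), against 12.8% of all genes. Where at least 80% of the window was unique, 3 of 21 histone genes did (14.3%), and with less unique windows 1 of 51 (1.96%). The part that repeated sequence plays in this was not tested. At the 4 genes with a peak in both replicates, pooled summits lay 2 to 27 bp from the replicate 2 summits. They lay 174 to 931 bp from those of replicate 1. The pooled histone peaks thus sat at the replicate 2 positions where both were present. For comparison, both replicates had a peak at 36 of 78 ribosomal protein genes (46.2%) and 21 of 156 collagen genes (13.5%). The median window of either group was 100% unique, unlike that of histone genes (23.3%).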

How the data were processed

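Peak lists in build ce11 were used, of 1 group with 2 biological replicates numbered as in the labels. Per the descriptions deposited with the lists, the authors made relaxed lists for the replicates singly and pooled, and a thresholded list. The aligner and peak caller are not named in the labels or lists. The relaxed lists, as deposited, give a signal score per peak, with no stated scale, and the −log10 of a q value, which was not used to select peaks. The 4 lists in the older build were not used.

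Genes came from Ensembl release 115 (WBcel235, the same coordinates as ce11), positions count from 1, and sequence was read from the RefSeq genome. The annotation gives 72 histone gene IDs 50 names, so genes were counted by ID and named by the RefSeq symbol of that ID, which also gave the histone class. The promoter window and the distance of 5 kb between gene bodies were as stated with the results. Words of 36 bases, and of 50 as an alternative, were counted on both strands of the genome. Genes with values given in full were those with a peak in any relaxed list. The members, lists and settings were chosen with earlier results of these data known. The 12-base core, the split by introns, the other genes within 10 kb and the limit of 80% unique words were chosen after the data were seen. Window searches and word counts were checked on simulated data. Python 3.11.15, numpy 2.4.6, pandas 2.3.3 and matplotlib 3.10.9 were used.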

Additional observations from a re-analysis of the deposited data

How the results depend on the processing

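The number of histone genes with a pooled peak (6 of 72) became 14 with a window of 2000 bp upstream and 500 bp downstream, where 60.1% of all genes had a peak, and 0 in the thresholded list. Clustered genes (4 of 67) gave 2 with a window of 500 and 100 bp, 11 with the window of 2000 and 500 bp, 2 where at least 80% of the window's 36-base words were unique (of 16), 2 by words of 50 bases (of 18) and 0 in the thresholded list. Isolated genes (2 of 5) gave 1 with peaks at or above the median signal and 0 in the thresholded list. With a replicate left out, so that only the list of the other replicate was used, the counts ran from 8 to 12 for all histone genes, 5 to 11 for clustered genes and 1 to 3 for isolated genes; the higher counts of the first 2 came without replicate 1. The limits on unique words and 1 gene per annotation name were chosen after seeing the data. The cause of these shifts was not tested. The outermost 5′ end alone, an overlap of 1 bp, neighbours within 2 or 10 kb and 1 gene per annotation name kept all counts within 1.5 times. In each of these settings with a background, all histone genes had a lower share than all genes, though the thresholded list gave only 0 against 0.175%. In replicate 2 with windows at least 80% unique, their share was higher (8 of 21, 38.1%, against 29.5%). Isolated genes had higher shares than clustered ones under each of these alternatives but the thresholded list; in replicate 2 with windows at least 80% unique, the order was the other way (1 of 5 isolated and 7 of 16 clustered genes). No paired analysis was possible because there was 1 group and no test. Depth is unknown, so what it limits cannot be stated.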
